A study of Homo sapiens with 8 samples.

Results

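Aldehyde dehydrogenases oxidise reactive aldehydes to carboxylic acids with NAD or NADP as the cofactor. Of the human genes that carry the ALDH name, 19 were matched by Ensembl identifier among 57905 genes of the expression table, and 10 of these are described here: ALDH1A1, ALDH1A3, ALDH1B1, ALDH2, ALDH3A2, ALDH3B2, ALDH4A1, ALDH6A1, ALDH7A1 and ALDH9A1. They were chosen by name, with the knowledge that ALDH1A3 was lower after YAP1 siRNA. That comparison therefore chose the members, and its values are given as a description, with no test of them. The label was checked only by identifier and symbol, and all 10 genes were found in all 8 count columns.

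The enzymes of this family differ in substrate and in the compartment they work in. ALDH1A1 and ALDH1A3 make retinoic acid, the ligand of the nuclear receptors RAR and RXR, from retinaldehyde, and high ALDH activity is widely used as a marker of stem-like cells in prostate and other cancers. ALDH2 and ALDH1B1 clear acetaldehyde in mitochondria, while ALDH4A1, ALDH6A1, ALDH7A1 and ALDH9A1 each carry out a step of amino acid breakdown or of carnitine synthesis.

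Human prostate cancer cells were studied by RNA sequencing of 8 libraries. EnzaR cells, a line resistant to the androgen receptor antagonist enzalutamide, were grown with 10 uM of the drug and received 40 nM of siRNA to YAP1 (siYAP1) or of control siRNA (siNC) for 48 h, with 2 libraries each. YAP1 is the transcriptional co-activator that the Hippo pathway restrains. LNCaP, an androgen-sensitive line sensitive to the drug, with no dose recorded, was given extracellular vesicles (EVs) of EnzaR cells for 48 h. The EVs came from EnzaR cells depleted of YAP1 (EV-siYAP1), depleted of the factor labelled CII (EV-siCII) or given the control siRNA (EV-siNC), and a vehicle-treated library was the control. Each LNCaP group has 1 library. The study asked for genes downstream of YAP1 in resistant cells and for effects of their vesicles on sensitive cells. The labels do not state that replicates were separate cultures, so that p-values measure the spread between libraries only, which may be technical. In RNA from whole cultures, fewer cells of a type and less RNA per cell cannot be told apart.

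Library totals lay between 16682669 and 18248939 counts, and 3 counts correspond to 0.164 to 0.18 CPM, the count scaled to a common library size. YAP1 was at 5.79 and 7.07 CPM in siYAP1 libraries, against 57.4 and 47.6 CPM in siNC libraries. All 12 luminal prostate markers were counted in both lines. Of 13 matched markers of other cell types, TP63, KRT5 and PTPRC had 0 counts in every library. The summed level of those 13 was 443 to 587 CPM in siYAP1, 449 to 477 CPM in siNC and 831 to 874 CPM in LNCaP libraries. Most of that sum in the 4 EnzaR libraries was FN1, at 418.5 to 557.9 CPM, which was at 457.7 to 503.7 CPM in LNCaP. VIM was at 0 to 2.13 CPM in the 4 EnzaR libraries and 259.1 to 282.4 CPM in LNCaP.

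The promoters of ALDH1A3, the member known to be lower after YAP1 siRNA when the family was chosen, and of ALDH3A2, whose log2 fold change there was the next farthest below 0, are shown. YAP1 binds DNA through TEAD factors, whose core motif GGAATG was searched on both strands. RefSeq (GRCh38.p14) gave windows of 250 bases before to 50 bases after a start for 8 of the 10 members, with 10 windows in all. ALDH2 and ALDH3B2 were not among them. The sequences below hold the 250 bases before the start in lower case and the first 10 transcribed bases in capitals, all on the plus strand. They lie at chr15:100879581-100879840 for ALDH1A3 and at chr17:19647886-19648145 and chr17:19648501-19648760 for the 2 starts of ALDH3A2.
ALDH1A3: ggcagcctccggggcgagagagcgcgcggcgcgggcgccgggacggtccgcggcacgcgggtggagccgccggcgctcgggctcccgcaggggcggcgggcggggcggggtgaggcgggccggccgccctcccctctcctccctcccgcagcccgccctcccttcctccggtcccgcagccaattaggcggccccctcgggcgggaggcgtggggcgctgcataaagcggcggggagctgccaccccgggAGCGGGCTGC
ALDH3A2 start 1: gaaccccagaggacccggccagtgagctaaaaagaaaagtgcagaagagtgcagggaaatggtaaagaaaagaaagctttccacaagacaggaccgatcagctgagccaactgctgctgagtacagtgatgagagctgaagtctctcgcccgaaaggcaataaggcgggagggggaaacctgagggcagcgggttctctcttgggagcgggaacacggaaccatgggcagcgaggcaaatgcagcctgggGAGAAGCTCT
ALDH3A2 start 2: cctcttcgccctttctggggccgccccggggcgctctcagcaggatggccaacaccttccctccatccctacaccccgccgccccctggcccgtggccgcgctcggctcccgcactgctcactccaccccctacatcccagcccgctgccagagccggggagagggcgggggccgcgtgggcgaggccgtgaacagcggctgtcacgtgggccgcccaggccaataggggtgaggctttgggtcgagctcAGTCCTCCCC
None of these 3 windows holds GGAATG on either strand. Among the 10 windows, 1 does, at the second start of ALDH4A1, where the motif begins 32 bases before the start (position -32). Of all 35116 promoters of the same length, 14.03% hold it. The ALDH1A3 window is 81.7% G and C, and the windows of ALDH3A2 are 55.0% and 73.3%, beside a median of 58.7% over all promoters. These letters describe the windows only.

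Levels between genes were compared per length, as FPKM in the authors' deposited table, a count scaled to exonic length and library total. Of the 10 genes, 7 were each above 7 FPKM in every library, ALDH1A3 was lower, and ALDH1A1 and ALDH7A1 were at 0 to 0.06 FPKM. The 2 lines differed in which enzyme led. ALDH2, the mitochondrial acetaldehyde enzyme (hg19 chromosome 12, 112204691 to 112247782, plus strand), was the highest of all 19 ALDH genes in each LNCaP library on this scale. That place rests on the deposited exonic length of 2169 bases: in CPM, without length, ALDH18A1 was above ALDH2 in the LNCaP control (161.7 against 154.9) and EV-siNC libraries (149.7 against 146.6). Per length, ALDH2 reached 30.3 ± 1.23 FPKM in siYAP1 and 30.6 ± 0.54 FPKM in siNC libraries (SD, n = 2 each), against 77.8 ± 8.89 FPKM in the LNCaP libraries (SD, n = 4). It thus made up 10.99% to 11.1% of the summed ALDH FPKM in siYAP1, 10.1% to 11.2% in siNC, and 26.0% to 31.2% in LNCaP. ALDH1B1, its mitochondrial relative (chromosome 9, 38392661 to 38398658, plus strand), led the 10 members in the 4 EnzaR libraries, with 43.6 and 49.4 FPKM in siYAP1 and 53.9 and 49.4 FPKM in siNC, against 33.9 to 38.3 FPKM in LNCaP. In siNC this lead also rests on exonic length: in CPM, ALDH3A2 was above ALDH1B1 (185.5 and 188.2 against 163.2 and 153.1). In siYAP1 ALDH3A2 was below it in CPM (139.6 and 137.4 against 149.9 and 161.8). The ratio of ALDH2 to ALDH1B1 per length was 0.632 to 0.675 in siYAP1 and 0.56 to 0.627 in siNC libraries, against 1.89 to 2.68 in LNCaP, with no overlap between the lines. ALDH18A1, which makes the proline precursor and is none of the 10, was the highest ALDH gene in all 4 EnzaR libraries, at 54.4 to 61.5 FPKM in siYAP1 and 55.8 to 65.0 FPKM in siNC.

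**Figure D1:**
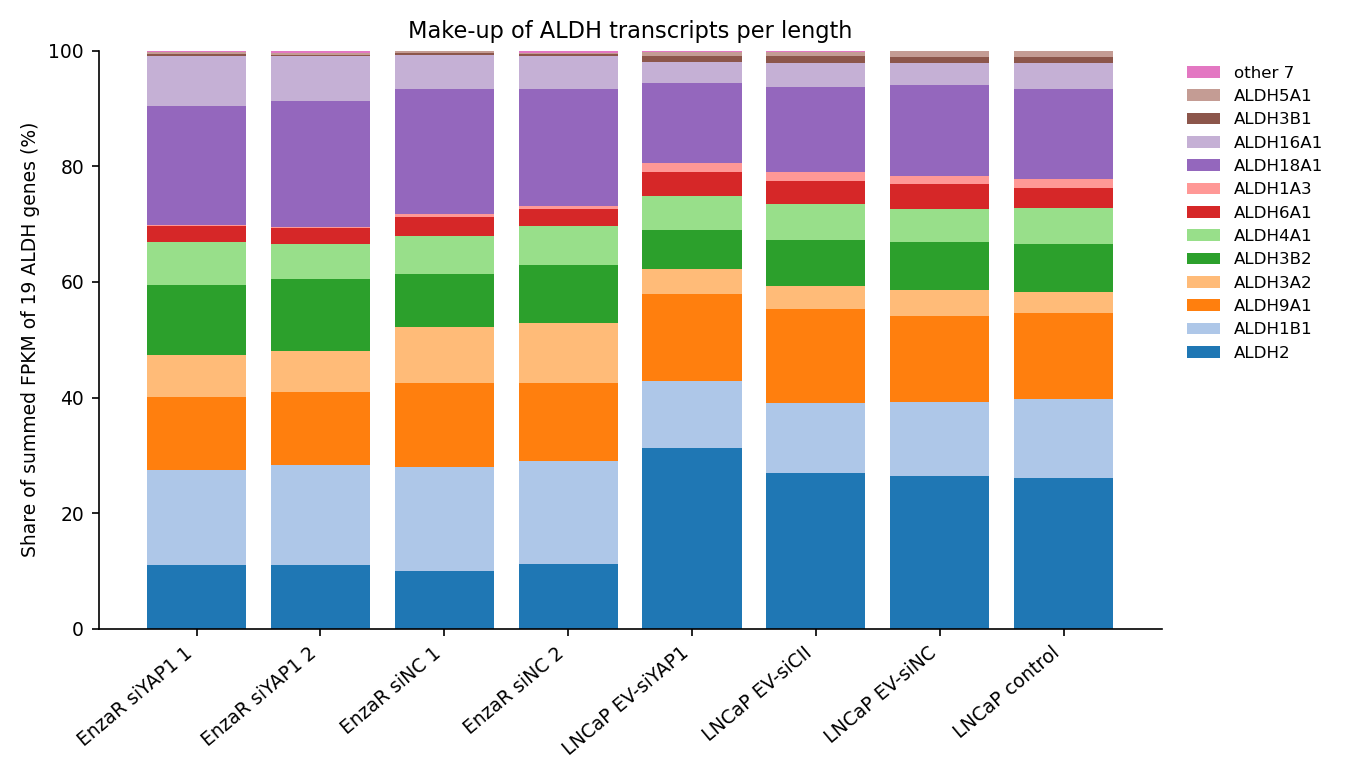
Share of each ALDH gene in the summed FPKM of 19 ALDH genes, in percent, for each library (stacked bars; 1 bar per library; the 7 lowest genes are pooled). The ALDH2 segment at the base spans 10.1% to 11.2% across the 4 EnzaR bars and 26.0% to 31.2% across the 4 LNCaP bars.

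The summed FPKM of the 10 members lay close together in the lines, at 185 and 197 in siYAP1 and 202 and 215 in siNC libraries, against 212 to 234 in LNCaP. ALDH9A1, which makes a carnitine precursor (chromosome 1, 165631453 to 165668100, minus strand), was at 33.3 and 35.6 FPKM in siYAP1, 37.1 and 43.4 FPKM in siNC and 40.2 to 46.4 FPKM in LNCaP. The siNC and LNCaP ranges overlapped. ALDH3A2, the fatty aldehyde dehydrogenase of the endoplasmic reticulum (chromosome 17, 19551449 to 19580911, plus strand), had 19.3 and 19.9 FPKM in siYAP1, 28.8 and 29.1 FPKM in siNC and 10.1 to 12.8 FPKM in LNCaP libraries, so that its 3 sets of libraries did not overlap. ALDH3B2, whose mouse counterpart acts on fatty aldehydes at lipid droplets (chromosome 11, 67429633 to 67448671, minus strand), had 32.0 and 35.7 FPKM in siYAP1, 27.4 and 27.5 FPKM in siNC and 19.4 to 23.2 FPKM in LNCaP libraries, again with no overlap. ALDH4A1, the proline pathway enzyme that yields glutamate (chromosome 1, 19197926 to 19229275, minus strand), was at 15.6 to 19.6 FPKM in all 8 libraries. ALDH6A1, which oxidises methylmalonate semialdehyde in valine breakdown (chromosome 14, 74523553 to 74551196, minus strand), was at 7.51 to 12.2 FPKM.

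ALDH1A3 (chromosome 15, 101417919 to 101456831, plus strand) was at 0.58 and 0.62 FPKM in siYAP1, 1.55 and 1.41 FPKM in siNC and 4.02 to 4.81 FPKM in LNCaP libraries. Its ratio to ALDH2 per length was 0.0186 to 0.0211 in siYAP1, 0.0455 to 0.0513 in siNC and 0.0514 to 0.0627 in LNCaP libraries. ALDH1A1, the other retinaldehyde enzyme of the 10 (chromosome 9, 75515578 to 75695358, minus strand), had 3 counts in siYAP1 replicate 2 and 0 counts in the other 7 libraries, which allows up to 0.164 to 0.18 CPM in each. ALDH7A1, of lysine breakdown (chromosome 5, 125877533 to 125931110, minus strand), had 0 to 4 counts per library. Both are at or near this depth's limit and were not tested, so that 8 of the 10 members passed the filter on low counts. How the counting treated strand and overlapping genes is not given in the sources used here. In the GENCODE transcripts, 37.6% of the 50-base stretches of ALDH4A1 and 24.4% of those of ALDH1A3 also occur in another gene, in each case almost entirely one that overlaps it, so their levels are less certain than the rest. The same-strand genes over these 2 had 0 to 3 counts, and the antisense gene ALDH1A3-AS1 had 4 to 22 counts per library.

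**Figure D2:**
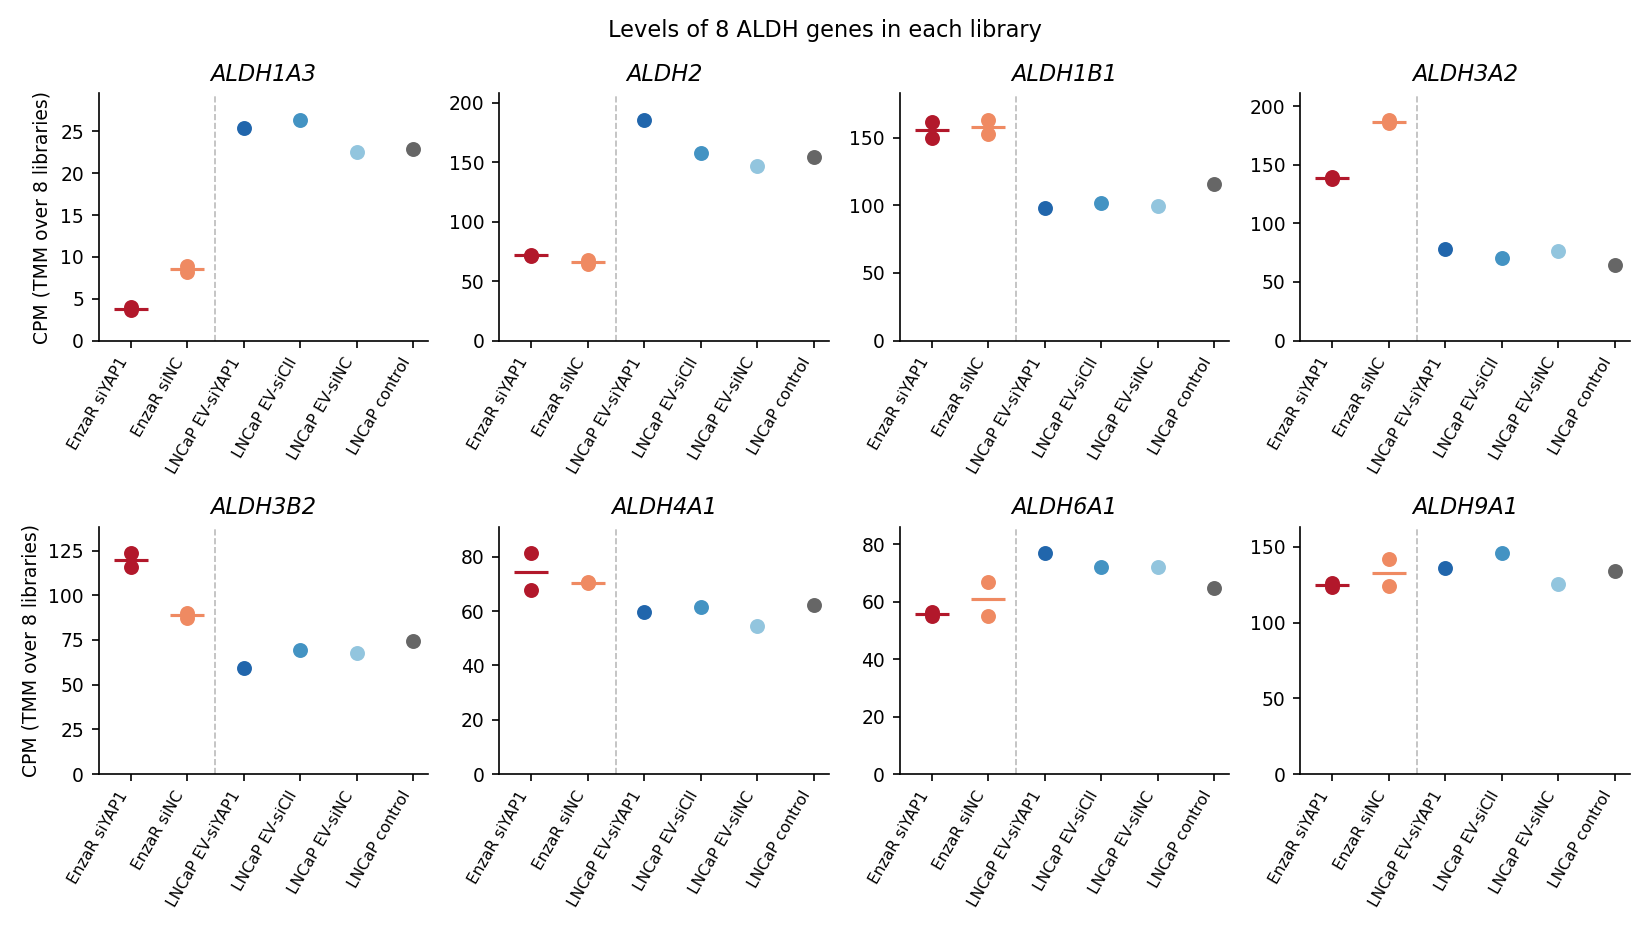
Level of the 8 tested members in each library, in CPM scaled (TMM) over all 8 libraries, with linear axes from 0 (points: libraries; short bars: means of 2 EnzaR libraries; dashed line: border between the EnzaR and LNCaP lines). ALDH1A3 spans 3.60 to 4.03 CPM in siYAP1, 8.20 to 8.86 CPM in siNC and 22.5 to 26.4 CPM in LNCaP libraries, while ALDH9A1 overlaps between all sets.

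The first comparison, siYAP1 against siNC in EnzaR cells, asked for genes that depend on YAP1. CPM values here are scaled over these 4 libraries. Each SE comes from the edgeR fit described in the processing section, not from the spread of the libraries alone. For the members it is descriptive. ALDH1A3 had 3.82 and 3.42 CPM in siYAP1 libraries, against 8.54 and 7.95 CPM in siNC libraries. Both siYAP1 libraries lay below both siNC libraries (log2 fold change -1.19, SE 0.22). ALDH3A2 was at 132 and 130.5 CPM in siYAP1, against 179 and 183 CPM in siNC, again without overlap (log2 fold change -0.46, SE 0.09). ALDH3B2 went the other way, with 109.7 and 117 CPM in siYAP1, against 84.3 and 87.3 CPM in siNC (log2 fold change 0.40, SE 0.10).

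The remaining 5 tested members had log2 fold changes between -0.16 and 0.09. ALDH2 stood at 67.7 and 68.7 CPM in siYAP1, against 62.4 and 65.9 CPM in siNC (0.09, SE 0.10). ALDH9A1 stood at 117 and 119.6 CPM in siYAP1, against 137 and 120.3 CPM in siNC (-0.12, SE 0.10). Its siYAP1 libraries lay below the siNC libraries on this scale, and the groups overlapped when scaled over all 8 libraries. ALDH6A1 had -0.16, ALDH1B1 -0.05 and ALDH4A1 0.05. The sign of ALDH2 turned when library totals alone set the scale (-0.01). That of ALDH6A1 turned after a correction for GC content and transcript length (0.10), and its value was -0.01 without siNC replicate 1 and -0.28 without siNC replicate 2. ALDH4A1 turned under 3 of 12 alternatives: library totals only, the correction (-0.08) and leaving out siYAP1 replicate 1 (-0.09). It was 0.19 without siYAP1 replicate 2. Of the 8 members, 5 were below 0, and the groups did not overlap for 5, beside 58.5% of all genes. The rule chose the members from this contrast, so no calls are counted among them and nothing is read from these counts.

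**Figure D3:**
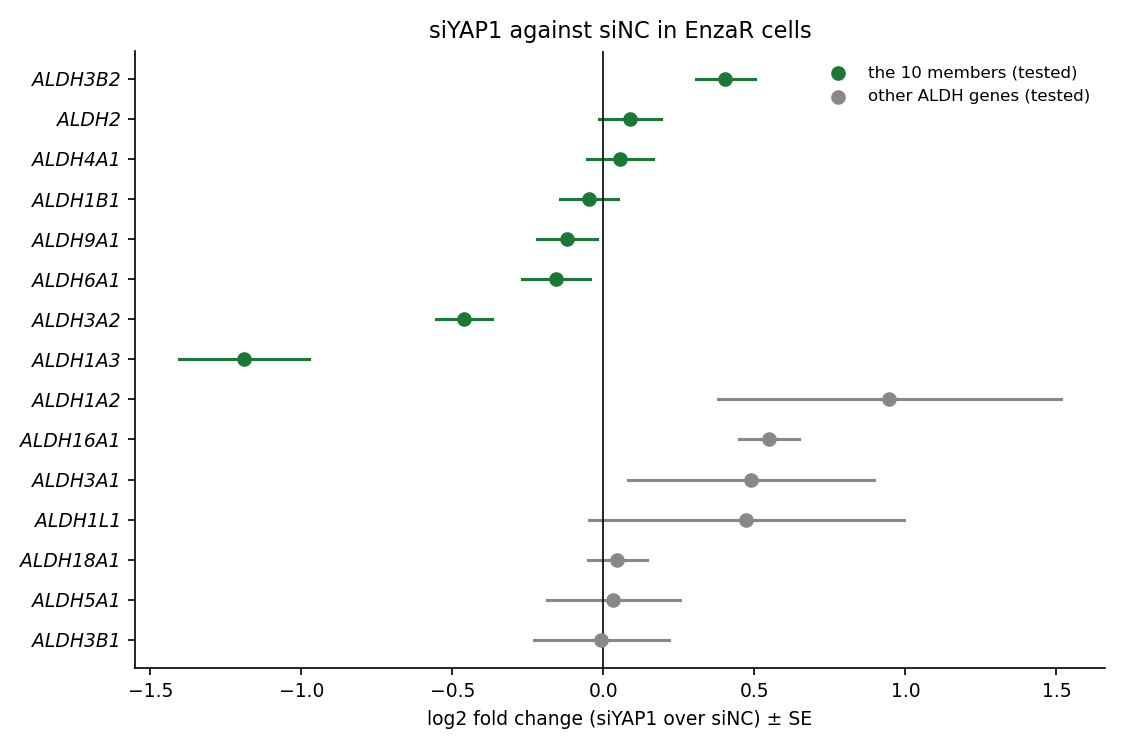
log2 fold change of siYAP1 over siNC in EnzaR cells for the tested members (green) and the other tested ALDH genes (grey), with bars of 1 SE (n = 2 libraries per group). ALDH1A3 at -1.19 and ALDH3A2 at -0.46 lie left of 0, and ALDH3B2 at 0.40 lies right of it.

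Over all genes, edgeR's quasi-likelihood test called 12.1% of 14948 genes, 872 (5.83%) higher with siYAP1 and 930 (6.22%) lower. Calls to the higher side made up 48.4%. That share was 17% with library totals only, 60.8% with DESeq2 and 71.2% after the GC and length correction. Of the 9 other ALDH genes, 7 were tested and 1 was called. ALDH16A1, a family member that lacks the catalytic cysteine, had 113 and 104.7 CPM in siYAP1, against 77.2 and 71.7 CPM in siNC (log2 fold change 0.55, SE 0.10, edgeR adjusted p = 0.00297). The end of ALDH16A1 overlaps 329 bases of PIH1D1 on the opposite strand, which had 1707 and 1812 counts in siYAP1, against 1362 and 1339 counts in siNC, and the part of that overlap was not tested.

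Retinoic acid synthesis and use was followed in 25 matched genes around ALDH1A3, of which 12 were tested. In siYAP1 libraries 0 were higher and 2 lower, beside 5.83% and 6.22% of all genes. The median log2 fold change was 0.005, beside -0.025 over all genes. Both that were lower reduce retinaldehyde to retinol. DHRS3 had 4.39 and 5.67 CPM in siYAP1, against 9.33 and 10.3 CPM in siNC (log2 fold change -0.96, SE 0.20, edgeR adjusted p = 0.00699). RDH11 had 111 and 119.3 CPM in siYAP1, against 147 and 178 CPM in siNC (-0.50, SE 0.11, edgeR adjusted p = 0.00673). DHRS3 was called under 11 of 12 alternatives and RDH11 under 9 of 12, not after the GC and length correction (-0.28) or without siNC replicate 2 (-0.35) or siYAP1 replicate 1.

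Of 24 other enzymes of aldehydes and carbonyls, 16 were tested, with 3 higher and 0 lower, beside 5.83% and 6.22% of all genes. Their median log2 fold change was 0.13. The 3 were the carbonyl reductase CBR3 (0.68, edgeR adjusted p = 0.013), DCXR, which reduces dicarbonyls (0.49, adjusted p = 0.0121), and the steroid reductase AKR1C2 (0.35, adjusted p = 0.0312), a near copy of AKR1C1 and therefore uncertain. CBR3 was called under 11 of 12 alternatives, DCXR under 9, not after the GC and length correction (0.25) or without siNC replicate 1 or siYAP1 replicate 1, and AKR1C2 under 6, with no call when any 1 of the 4 libraries was left out. Of 29 genes that supply or share the substrates of mitochondrial and lipid ALDH enzymes, 25 were tested, with a median of -0.027. Of these 0 were higher and 3 lower, beside 5.83% and 6.22% of all genes. Taken in either direction, that share was near the 12.1% called over all genes. The 3 were AADAT of lysine breakdown (-0.58, adjusted p = 0.0265), MCCC1 of leucine breakdown (-0.40, adjusted p = 0.0196) and DBT, which acts on branched-chain keto acids (-0.39, adjusted p = 0.0338). None of these 3 calls was kept after the GC and length correction, where DBT was at -0.02 and 1 other gene of the list was higher, nor without siNC replicate 2, siYAP1 replicate 1 or siYAP1 replicate 2. Without siYAP1 replicate 1, 15 genes of all were called higher and 11 lower, and 0 of the genes of these 3 lists. ALDH16A1 was at 0.48 without it (adjusted p = 0.127, range over the alternatives 3.25e-05 to 0.127).

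**Figure D4:**
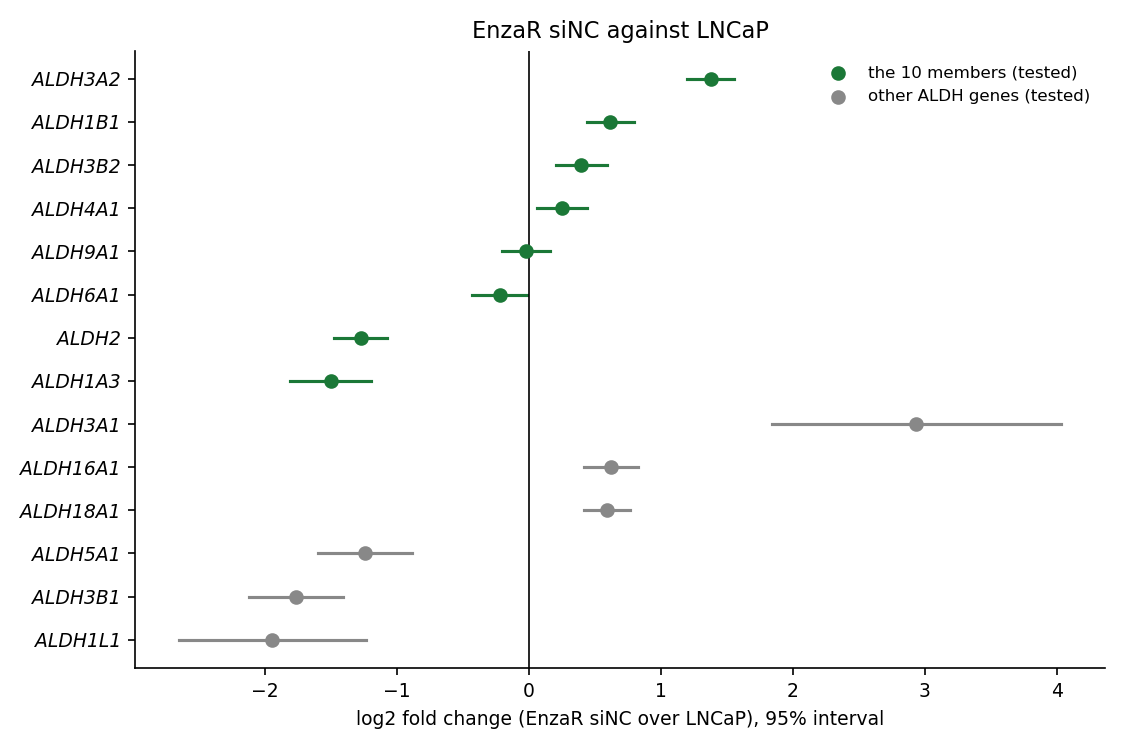
log2 fold change of EnzaR siNC (2 libraries) over LNCaP (4 libraries) with 95% intervals for the tested members (green) and the other tested ALDH genes (grey). ALDH3A2 at 1.38 lies farthest right among the members, and ALDH2 at -1.27 and ALDH1A3 at -1.50 lie farthest left.

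The second comparison set the 2 EnzaR siNC libraries against the 4 LNCaP libraries taken as 1 line. Resistance, recorded enzalutamide and siRNA go with the line, and vesicles with 3 of the 4 LNCaP libraries, so these cannot be told apart. It shares the siNC libraries with the comparison above. CPM values are scaled over these 6 libraries. The lines differed broadly, since 70.3% of 16477 genes were called (35.4% higher and 34.9% lower in EnzaR), and groups did not overlap for 75.7%. Of the 8 tested members, 4 were higher, 2 lower and 2 not called, and the groups of 6 did not overlap. A share of 6 in 8 is near that background, so only the values of each gene are read.

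ALDH3A2 had 193 and 194 CPM in EnzaR siNC, against 80.2, 72.5, 78.2 and 66.9 CPM in LNCaP with EV-siYAP1, EV-siCII, EV-siNC and control. Both EnzaR libraries were above all 4 LNCaP libraries, with a log2 fold change of 1.38 (SE 0.09, edgeR adjusted p = 2.49e-12). ALDH1B1 had 169.8 and 158 CPM in EnzaR siNC, against 100.5, 104.4, 102 and 120.2 CPM in LNCaP in the same order (log2 fold change 0.62, SE 0.09, edgeR adjusted p = 1.45e-06). The mitochondrial pair thus differed in opposite directions. ALDH2 had 67.3 and 70.03 CPM in EnzaR siNC, against 190.6, 163, 150.3 and 161 CPM in LNCaP, with no overlap (log2 fold change -1.27, SE 0.10, edgeR adjusted p = 1.13e-10). ALDH1A3 had 9.22 and 8.45 CPM in EnzaR siNC, against 26.1, 27.2, 23.1 and 23.8 CPM in LNCaP. Here too the lines did not overlap (log2 fold change -1.50, SE 0.15, edgeR adjusted p = 7.32e-09). With the siYAP1 libraries in place of siNC, the ALDH1A3 value was -2.71, a contrast that includes the difference by which the gene was chosen.

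ALDH3B2 had 91.0 and 92.8 CPM in EnzaR siNC, against 60.6, 71.7, 69.5 and 77.0 CPM in LNCaP. The lines did not overlap (log2 fold change 0.40, SE 0.09, edgeR adjusted p = 0.000729), but the size depended on the processing. Against the LNCaP control alone it was 0.23 and not called (adjusted p = 0.0927), and after the GC and length correction it was 0.84 (adjusted p = 1.5e-08), the ends of the range over the alternatives. ALDH4A1 had 73.4 and 72.3 CPM in EnzaR siNC, against 61.2, 63.5, 55.8 and 64.7 CPM in LNCaP. Its log2 fold change was 0.25 (SE 0.09, edgeR adjusted p = 0.0188). That call was lost against the LNCaP control alone (0.15, adjusted p = 0.27), with library totals only (0.18, adjusted p = 0.0639), and without siNC replicate 1 (adjusted p = 0.0743), siNC replicate 2 (adjusted p = 0.0625) or EV-siNC (adjusted p = 0.0747). After the GC and length correction it was 0.75 (adjusted p = 5.47e-08), so that adjusted p-values ranged from 5.47e-08 to 0.27 over its 15 alternatives, of which 10 kept the call.

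The other 2 were not called. ALDH6A1 had 69.4 and 56.6 CPM in EnzaR siNC, against 78.8, 74.1, 73.8 and 67.1 CPM in LNCaP, and siNC replicate 1 lay inside the LNCaP range. Its log2 fold change was -0.22 (SE 0.10, edgeR adjusted p = 0.0537, range over the alternatives 5.38e-05 to 0.57). It was called lower under 7 of 15 alternatives. These were DESeq2 size factors (-0.23, adjusted p = 0.0437), library totals only (-0.29, adjusted p = 0.0209), the GC and length correction (-0.50, adjusted p = 5.38e-05), all 4 EnzaR libraries (-0.32, adjusted p = 0.00559), siYAP1 in place of siNC (-0.40, adjusted p = 0.000921), and leaving out siNC replicate 1 (-0.37, adjusted p = 0.0155) or LNCaP control (-0.27, adjusted p = 0.00901). Without siNC replicate 2 it was -0.08 (adjusted p = 0.57). ALDH9A1 had 147.5 and 128 CPM in EnzaR siNC, against 139.9, 150.1, 129 and 139.5 CPM in LNCaP. The lines overlapped (log2 fold change -0.02, 95% interval -0.20 to 0.16, edgeR adjusted p = 0.855).

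All 6 tested genes among the 9 other ALDH genes were called, beside 70.3% of all genes, so only their values are read. Higher in EnzaR siNC were ALDH3A1 (log2 fold change 2.94, 1.54 ± 0.97 CPM in 2 EnzaR siNC and 0.20 ± 0.08 CPM in 4 LNCaP libraries, SD), ALDH16A1 (0.62) and ALDH18A1 (0.59). ALDH3A1 rests on 15 and 39 counts in the EnzaR siNC and 2 to 5 counts in the LNCaP libraries. It was at 3.48 without siNC replicate 1 and at 2.09 without siNC replicate 2, called in both. Lower were ALDH1L1, a folate enzyme (-1.94), ALDH3B1 (-1.76) and ALDH5A1, which oxidises succinate semialdehyde from GABA (-1.24). Their edgeR adjusted p-values lay between 6.18e-09 and 3.63e-05.

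In the retinoid list, 13 of 25 genes were tested, with 2 higher and 8 lower in EnzaR siNC than in LNCaP. Over all genes 35.4% were higher and 34.9% lower. After the GC and length correction 4 genes of the list were higher and 7 lower, and without a filter 2 and 11. The median log2 fold change of the list was -0.40, beside -0.02 over all genes. The 2 higher were RDH13 (0.68, edgeR adjusted p = 0.000126) and RDH14 (0.65, edgeR adjusted p = 0.00053). CRABP2, which carries retinoic acid to its receptors, was at 2.68 ± 0.65 CPM in EnzaR siNC and 11.4 ± 0.86 CPM in LNCaP libraries (SD, n = 2 and 4, log2 fold change -2.09, edgeR adjusted p = 7.62e-09). RDH10, which oxidises retinol to retinaldehyde, was at 6.55 ± 1.51 CPM in EnzaR siNC and 17.7 ± 3.46 CPM in LNCaP (log2 fold change -1.43, edgeR adjusted p = 1.31e-06). CYP26B1, which degrades retinoic acid, was at -1.64 (edgeR adjusted p = 0.000719) and was not called against the LNCaP control alone (adjusted p = 0.0687). The receptor gene RARB averaged 0.03 CPM in EnzaR siNC and 1.85 CPM in LNCaP libraries (edgeR adjusted p = 3e-07). With so few counts in EnzaR, its fitted fold change is not given.

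Of the other aldehyde and carbonyl enzymes, 11 of 16 tested were higher in EnzaR siNC and 0 lower (median 0.88), beside 35.4% and 34.9% of all genes. With library totals only or DESeq2 size factors, 10 were higher and 1 lower, and after the GC and length correction 14 were higher and 2 lower. The steroid reductases AKR1C2 (log2 fold change 4.72), AKR1C1 (3.40) and AKR1C3 (2.71) are near copies of one another and uncertain as single genes. The aldehyde oxidase AOX1 was at 0.86 ± 0.16 CPM in EnzaR siNC and 0.06 ± 0.08 CPM in LNCaP libraries (SD, n = 2 and 4, edgeR adjusted p = 0.000133), with 0 to 3 counts per LNCaP library, so that its fitted fold change is not given either. Of the substrate partners, 10 of 25 tested were higher and 7 lower (median 0.13), near the 35.4% and 34.9% of all genes. AADAT (2.25) and OAT, which feeds the substrate of ALDH4A1 (2.09), were the farthest above 0. AASS, the first enzyme of lysine breakdown (-2.15), and ABAT, which makes the substrate of ALDH5A1 (-1.68), were the farthest below.

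Beside these differences, 6 of 12 luminal markers were higher and 3 lower in EnzaR siNC, in a comparison that called 70.3% of all genes. The summed level of the 12, scaled over all 8 libraries, was 4520 to 4623 CPM in EnzaR siNC and 3406 to 3737 CPM in LNCaP. Among the higher markers, KLK3 had a log2 fold change of 4.78, TRPM8 of 5.45, KLK2 of 3.65 and TMPRSS2 of 1.48. The 3 lower were FOLH1 (-1.15), KRT8 (-0.74) and HOXB13 (-0.51). Of 4 tested markers of other cell types 2 were lower, VIM (-8.30) and COL1A1 (-2.26). After siYAP1, 2 luminal markers were lower, TRPM8 (-0.66) and STEAP2 (-0.35), and 1 other marker higher, SYP (0.86, adjusted p = 0.0433). TRPM8 was called under 11 of 12 alternatives. STEAP2 was called under 6 of 12, with 0.002 after the GC and length correction, and SYP under 3 of 11 (adjusted p up to 0.261). Mitochondrial transcripts were 6.65% to 6.83% of all EnzaR counts and 4.76% to 5.37% of all LNCaP counts. The part of these shifts in the ALDH values was not tested.

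**Figure D5:**
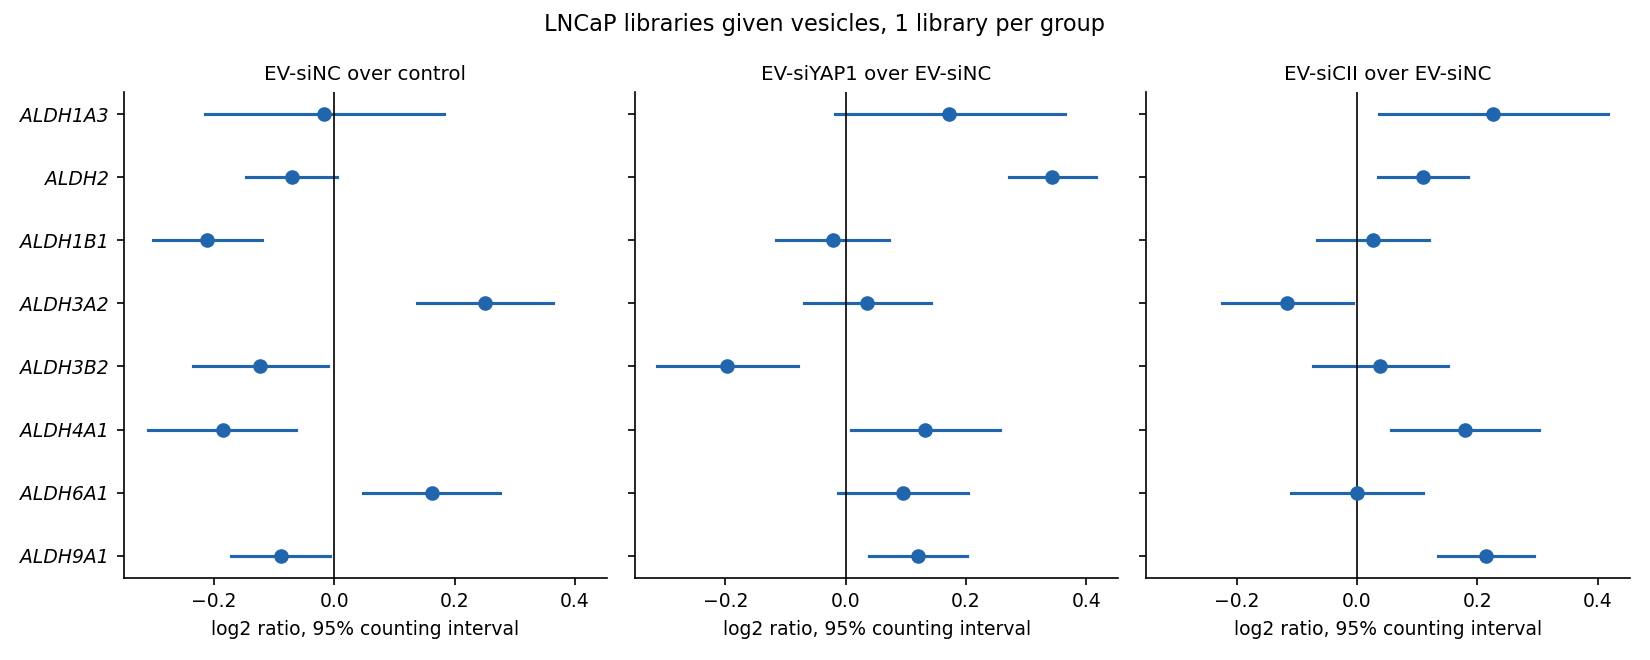
log2 ratio of CPM between single LNCaP libraries for 8 members, with 95% exact binomial intervals that cover counting error only. In the panel of EV-siYAP1 over EV-siNC, ALDH2 lies at 0.34, and 0 members reach a ratio of 1 or -1 on this scale in any of the 3 panels.

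The LNCaP comparisons asked what vesicles of EnzaR cells change in sensitive cells. With 1 library per group they have no replicate check and no test. CPM values are scaled over the 2 libraries compared, for genes with at least 10 CPM in either, and intervals are 95% exact binomial limits for counting error. Without molecular identifiers, reads are not independent molecules. The comparisons share the EV-siNC library, and those against control share the control. In all of them 0 of 8 measured members reached 2-fold. The background was 0.0555% of 9017 genes higher and 0.0665% lower for EV-siNC against control. It was 0.0109% and 0.0436% for EV-siYAP1 against EV-siNC, and 0.011% and 0.066% for EV-siCII against EV-siNC. Against control it was 0.253% and 0.187% for EV-siYAP1, and 0.0223% and 0.111% for EV-siCII.

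In EV-siNC against control, ALDH3A2 was at 79.2 CPM in EV-siNC, against 66.6 CPM in control (log2 ratio 0.25, interval 0.14 to 0.36). ALDH1B1 was at 103.4 CPM in EV-siNC, against 119.6 CPM in control (-0.21, interval -0.30 to -0.12), and -0.10 after the GC and length correction. ALDH4A1 had -0.19 and ALDH6A1 0.16. These are single libraries, and across all genes the SD of this log2 ratio was 0.253, beside 0.2 between the siYAP1 and 0.195 between the siNC replicates. Genes richer in G and C tended to have lower ratios (Spearman's rho -0.541 over genes, which do not count as replicates). After the correction ALDH6A1 was at -0.08 and ALDH3B2 at -0.004, against -0.12 for ALDH3B2 without it. ALDH1A3 had 23.4 CPM in EV-siNC and 23.7 CPM in control (-0.02, interval -0.22 to 0.18).

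ALDH2 was the member farthest from 0 in EV-siYAP1 against EV-siNC, at 197 CPM in EV-siYAP1, against 155 CPM in EV-siNC. Its log2 ratio was 0.34 (interval 0.27 to 0.42), above that of 96.6% of the 9166 genes measured, whose SD was 0.184. Against control the same library gave 193 CPM in EV-siYAP1 and 160.3 CPM in control (0.26, interval 0.19 to 0.34). ALDH3B2 was lower, at 62.6 CPM in EV-siYAP1, against 71.8 CPM in EV-siNC (-0.20, interval -0.31 to -0.08). ALDH1A3 was at 26.9 CPM in EV-siYAP1, against 23.9 CPM in EV-siNC (0.17, interval -0.02 to 0.37). The other members lay between -0.02 and 0.13. As background for these sizes, log2 ratios between EnzaR replicates of 1 group ran from -0.29 to 0.13 for the measured members other than ALDH1A3. ALDH1A3 has no such background here, since it lay under the floor of 10 CPM in EnzaR. LNCaP groups have no replicates.

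In EV-siCII against EV-siNC, ALDH1A3 was at 27.9 CPM in EV-siCII, against 23.8 CPM in EV-siNC (log2 ratio 0.23, interval 0.04 to 0.42). ALDH9A1 was at 154 CPM in EV-siCII, against 133 CPM in EV-siNC (0.21, interval 0.13 to 0.29), and ALDH4A1 had 0.18 (interval 0.06 to 0.30). Of the 8 members, 6 were above 0 in EV-siYAP1 against EV-siNC, beside 51.6% of all genes, with a median of 0.11 beside 0.01 over all genes. In EV-siCII against EV-siNC 6 were above 0, beside 51.7%, with a median of 0.07 beside 0.01. Both counts share the EV-siNC library, in which 2 of the 8 were above 0 against control, beside 44.0%, with a median of -0.08 beside -0.03. Against control, 5 of 8 were above 0 in EV-siYAP1 (median 0.09, beside 47.0% of all genes) and 5 in EV-siCII (median 0.07, beside 44.9%).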

How the data were processed

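For 8 libraries the authors deposited 1 table with a raw read count and an FPKM value for each gene. Per the submitters' processing notes, cutadapt 1.9.1, HISAT2 2.0.1, HTSeq 0.6.1, DESeq2 and the build hg19 (GRCh37) were used, without stated roles. The deposited FPKM equalled the count over exonic length and library total for 463240 of 463240 values, within 0.0051. Genes were named by Ensembl identifier.

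Counts were used as deposited. The 2 replicated comparisons used the robust quasi-likelihood test of edgeR 4.0.16 (R 4.3.3) without covariates, after filterByExpr and TMM scaling. P-values were adjusted by Benjamini-Hochberg over all genes tested, with a threshold of 0.05. Each SE was the size of the log2 fold change over the square root of the F statistic of this fit. Where 1 library stood for a group, log2 ratios used a prior count of 2 and a floor of 10 CPM, with exact binomial intervals at 95%. Tested on simulated data, the fit found 97% of changes of 2-fold and 69% of those of 1.5-fold for siYAP1 against siNC (14948 genes, 5.14% of calls false), and 96% and 73% for the lines (16477 genes, 10.11% false). Each simulation changed only 200 genes, up or down at random, all above a floor on mean level. The data called 1802 and 11580 genes, so these shares need not hold for them.

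The members and gene lists were chosen with earlier results of these data known. Named genes were all ALDH genes, YAP1, up to 4 called genes of each list by size of change, and the 5 genes closest to ALDH1A3 in pattern. Alternatives were other scalings and filters, DESeq2 1.42.0, limma-voom 3.58.1, a replicate block, other sets of libraries, each library left out, and a smooth correction for GC content and length (mgcv 1.9.3). Protein sequences were not used here.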

Additional observations from a re-analysis of the deposited data

How the results depend on the processing

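In the comparison of the lines, the 6 members called kept their direction under all 15 alternatives, and 4 to 7 members were called. Of 508 values of single genes there, 489 stayed on their side of the threshold. In siYAP1 against siNC, 189 of 234 values of genes other than the members did, and 45 lost their call. The members have no test there, and 82 of their 95 values moved by less than 1 SE. In siYAP1 against siNC, ALDH1A3 ranged from -1.29 to -1.10, ALDH3A2 from -0.56 to -0.32 and ALDH3B2 from 0.27 to 0.44. Of all genes, 872 were higher and 930 lower. With library totals only, 291 were higher and 1416 lower, and the median over all genes was -0.129 instead of -0.025. The GC and length correction gave 499 and 202, and DESeq2 gave 576 lower. Leaving out 1 library gave 15 to 940 higher and 11 to 829 lower. Without siYAP1 replicate 1, where 15 were higher and 11 lower, 2434 had an unadjusted p under 0.05. STEAP2 reversed to 0.002 after the GC and length correction. The correlation of same-numbered deviations across genes was -0.08. With so few libraries it cannot settle whether same-numbered libraries belong together. With a replicate block 564 genes were higher and 845 lower. In the LNCaP comparisons, a floor of 5 CPM moved the number of genes 2-fold higher to 20, 5 and 6 (EV-siNC against control, EV-siYAP1 against EV-siNC, EV-siCII against EV-siNC), beside 5, 1 and 1. It moved those lower to 10 and 9 in the first and second, beside 6 and 4. For EV-siNC against control, 9 were higher with library totals only and 2 after the GC and length correction. The causes were not tested, except that a lower floor admits more genes. Depth limits ALDH1A1 and ALDH7A1, and single LNCaP libraries limit every vesicle ratio.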

Other observations

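Over the 8 libraries, the genes whose log2 CPM followed that of ALDH1A3 most closely, among 10606 genes with a mean of at least 5 CPM, were SIN3A (Pearson r 0.997), BMP8B (0.996), SUMF1 (0.995), NFIB (0.993) and RNF150 (0.993). The values rest on 2 lines that lie apart and on shared libraries. They also include the siYAP1 against siNC difference by which ALDH1A3 was chosen. So r is a description of these libraries and has no p. SIN3A, a co-repressor scaffold, was at 59.5 and 60.7 CPM in siYAP1, 74.6 and 73.3 CPM in siNC and 98.8 to 106 CPM in LNCaP libraries.

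RDH10, which makes retinaldehyde from retinol and was chosen here after its values were seen, was at 14.3 CPM in EV-siYAP1, against 22.0 CPM in EV-siNC (log2 ratio -0.62, counting interval -0.86 to -0.40, at percentile 0.3 of all genes). In EV-siCII it was at 16.3 CPM, against 22.0 CPM in EV-siNC (-0.43, interval -0.66 to -0.21, percentile 1). Both ratios share the EV-siNC library. Against the control library, EV-siYAP1 had 13.9 CPM and control 19.7 CPM (-0.50, interval -0.74 to -0.26). ALDH1A3, which uses the product of RDH10, was at 0.17 (interval -0.02 to 0.37), 0.23 (0.04 to 0.42) and 0.15 (-0.045 to 0.343) in these 3 comparisons. Of these 3 intervals, 2 include 0. In EV-siCII against control, RDH10 was at -0.299 (interval -0.533 to -0.07). ALDH1A3 was at 0.201 there, with an interval above 0 (0.009 to 0.395). In EV-siNC against control, RDH10 was at 0.137 (interval -0.075 to 0.351) and ALDH1A3 at -0.017 (-0.215 to 0.182). Against EV-siNC, RDH13 of the same list was also lower in EV-siYAP1 (-0.40, percentile 1.8) and EV-siCII (-0.36, percentile 2.2). RDH11 was above 0 in both (0.08 and 0.10). There is 1 library per group, and no test was made.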
